A study of Monodelphis domestica with 5 samples.

Results

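The regions described here are H3K4me3 peaks of opossum (Monodelphis domestica) fibroblasts that carried H3K9Ac and neither of the repressive marks profiled beside them. They were chosen by overlap of the deposited MACS peaks. An H3K4me3 peak on chromosomes 1 to 8 of the MonDom5 assembly, less than 10000 bases wide, was kept if it shared at least 1 base with an H3K9Ac peak and none with any H3K9me3 or H3K27me3 peak. Of 79412 H3K4me3 peaks, 75115 lay on these autosomes, 74245 of those were under the width limit and 43351 of those shared a base with H3K9Ac. H3K9me3 peaks touched 1805 of the 43351 and H3K27me3 peaks touched 174, with 39 touched by both, which left 41411 active peaks (52.1% of every H3K4me3 peak, exact 95% binomial interval 51.8% to 52.5%).

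Trimethylation of lysine 4 on histone H3 (H3K4me3) is laid down around the start sites of genes that are transcribed or ready to be transcribed, and acetylation of lysine 9 (H3K9Ac) accompanies open chromatin at active promoters. Both are marks of activation (MOAs). H3K9me3, known from constitutive heterochromatin, and H3K27me3, placed by Polycomb complexes at silenced developmental genes, are marks of repression (MORs). A promoter with both MOAs and no MOR is the textbook state of an active gene, whereas the study looked for imprinted genes at promoters where marks of both kinds meet.

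All 4 antibodies were used on native chromatin, digested with micrococcal nuclease and not cross-linked, from primary ear fibroblasts of a single adult male F1 animal, A0514, whose mother came from the LL1 stock and whose father came from the LL2 stock. Each antibody gave 1 library, and the authors called its peaks against input chromatin of the same cells. No peak therefore has a replicate error, peaks of 1 library are not replicates of a condition, and no test was made. The spread among the 8 autosomes is given instead, as a description. The peak lists hold no read counts, so the depth behind a single peak is not known here. The study's supplement lists aligned reads for each library, which differed between antibodies, and these were not used here. Binomial intervals cover counting error only and treat peaks as independent. The strength of a peak is the authors' score, the negative log10 of the p-value from MACS multiplied by 10. Scores started at 50 in both MOA lists (p of 1e-05) and at 30 in both MOR lists (p of 0.001). The study counts its main H3K9me3 peaks at p of 1e-05, and the 159734 used here are its list at p of 0.001. It gives p of 1e-05 for the 16592 H3K27me3 peaks, although their deposited scores start at 30. Overlaps and distances here are therefore not on the same footing as the study's. MOA scores ran into a ceiling, with 4560 active peaks at an H3K4me3 score of exactly 3100. No gene annotation or genome of MonDom5 was used here, so the fibroblast label was not checked against marker genes.

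The active peaks covered 125.5 Mb and had a median H3K4me3 width of 2538 bases, from 508 to 9999 bases. They touched 42554 of the 51165 H3K9Ac peaks on the same chromosomes (83.2%). Their number ranged from 9.36 per Mb on chromosome 5 to 13.3 per Mb on chromosome 2. Chromosomes 5 and 7, the lowest in active peaks per Mb, were the highest in H3K9me3 peaks per Mb, at 56.0 and 51.8 against 39.2 to 47.8 on the other 6. Median widths differed little between chromosomes and lay between 2462 and 2606.5 bases.

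The limit on width and the limit on overlap both cut through a continuum. The widest active peaks, of 9999, 9995 and 9995 bases, had partner scores of 3100, 2727 and 3100, and the narrowest peaks left out for width, of 10000, 10002 and 10008 bases, had partner scores of 377, 3100 and 1377. The smallest amounts of shared H3K9Ac among active peaks were 2, 4 and 5 bases, while 2 of the H3K4me3 peaks left out abutted an H3K9Ac peak with no base between. Peaks that shared only 100 or fewer bases with H3K9me3 made up 126 of the 1805 left out for that mark, and 117 active peaks had an H3K9me3 peak fewer than 100 bases away. These members are described with the rest, and their place on either side of the limits rests on a few bases.

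Each active peak was paired with the H3K9Ac peak that shared most bases with it, its partner. Among the called peaks, the acetylated stretch was usually the shorter one, and most of its bases usually lay within the methylated one. Called widths rise with score, and the 2 libraries were called separately with different numbers of reads. The part of calling and depth in the widths, ratios and covered shares was not tested. The partner was wider than the H3K4me3 peak in 12803 active peaks (30.9%). The median partner was 2228 bases wide, and the median ratio of H3K9Ac to H3K4me3 width was 0.874, with 90% of ratios between 0.462 and 1.71. In the narrowest of 4 equal classes of H3K4me3 width (1855 bases or fewer) the median ratio was 1.05. H3K4me3 width is the denominator of the ratio, so a higher ratio in narrow peaks is in part built in. The median active peak had 84.5% of its bases in H3K9Ac peaks (interval 84.3% to 84.8%), and the median partner had 99.4% of its bases inside the H3K4me3 peak. These proportions were alike on every chromosome, with medians of 0.867 to 0.883 for the width ratio and 83.8% to 85.2% for the covered share. A region on chromosome 7 from 198500807 to 198503342 lay closest to the medians of width, covered share and offset. There an H3K4me3 peak of 2536 bases (score 728) held an H3K9Ac peak of 2148 bases (score 231), from 198501190 to 198503337.

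Averaged over active peaks, H3K9Ac was centred on the H3K4me3 peak and drawn in by similar amounts at either end, which single peaks often were not. At the middle of the active peaks 96.0% were inside an H3K9Ac peak. Every active peak shared a base with H3K9Ac by the rule, so part of this coverage was built in. The share was 44.0% just inside the lower end and 43.2% just inside the upper end, and 28.3% and 27.9% just outside them. The median H3K9Ac peak started 131 bases inside the lower end of the H3K4me3 peak and stopped 140 bases inside the upper end. Profiles of the wide and the narrow peaks differed mostly at the edges: just inside the lower end, 61.3% of the narrowest and 34.4% of the widest active peaks were acetylated. The classes are cut by the same width that scales the profile, so part of this difference follows from the definition.

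**Figure D1:**
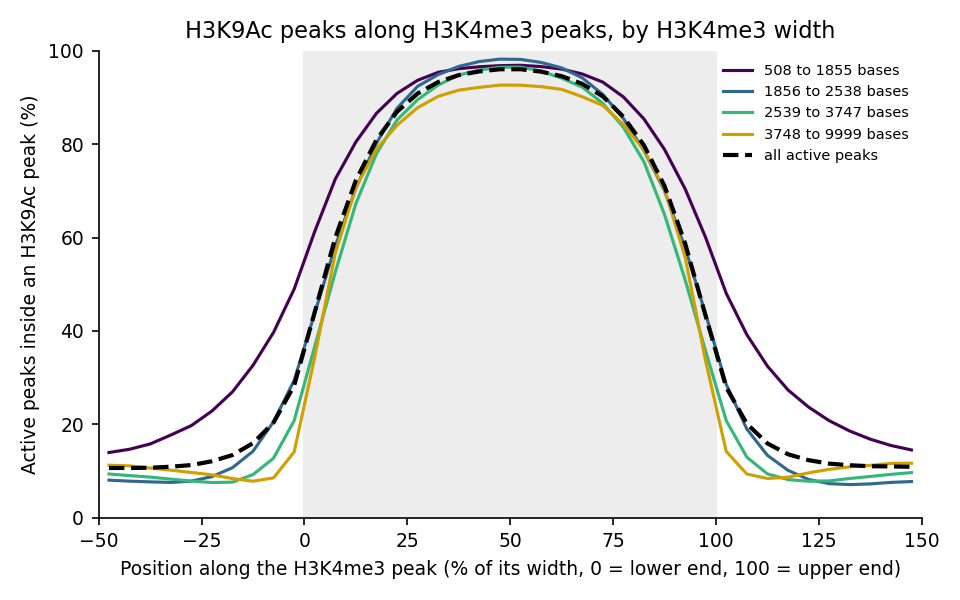
Share of active peaks (vertical axis, %) that lay inside an H3K9Ac peak at each position along the H3K4me3 peak (horizontal axis, % of its width), for all 41411 peaks (dashed) and for 4 equal classes of H3K4me3 width (lines). Grey marks the H3K4me3 peak itself, where the dashed line reaches 96.0% at the middle, and the line of the narrowest class stays above the others beyond both ends.

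The commonest arrangement was an H3K9Ac peak wholly inside the H3K4me3 peak, in 19959 active peaks (48.2%). In 6454 (15.6%) the H3K4me3 peak lay wholly inside the H3K9Ac peak. In the others H3K9Ac reached past 1 end only, the lower end in 7648 (18.5%) and the upper end in 7350 (17.7%). Widths differ between these arrangements in part by definition, because a peak that encloses its partner is the wider of the pair. Peaks that enclosed their H3K9Ac partner had a median width of 3053 bases and a median H3K4me3 score of 794, against 1910.5 bases and 209 for peaks enclosed by it. The H3K9Ac scores went the other way, with medians of 251 and 436. Scores grow with width, at a Spearman's rho of 0.85 for H3K4me3 and 0.91 for H3K9Ac. The part of width in these score differences was not tested. On single chromosomes the enclosing arrangement made up 47.0% to 49.9% of active peaks and the enclosed one 14.1% to 16.5%.

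**Figure D2:**
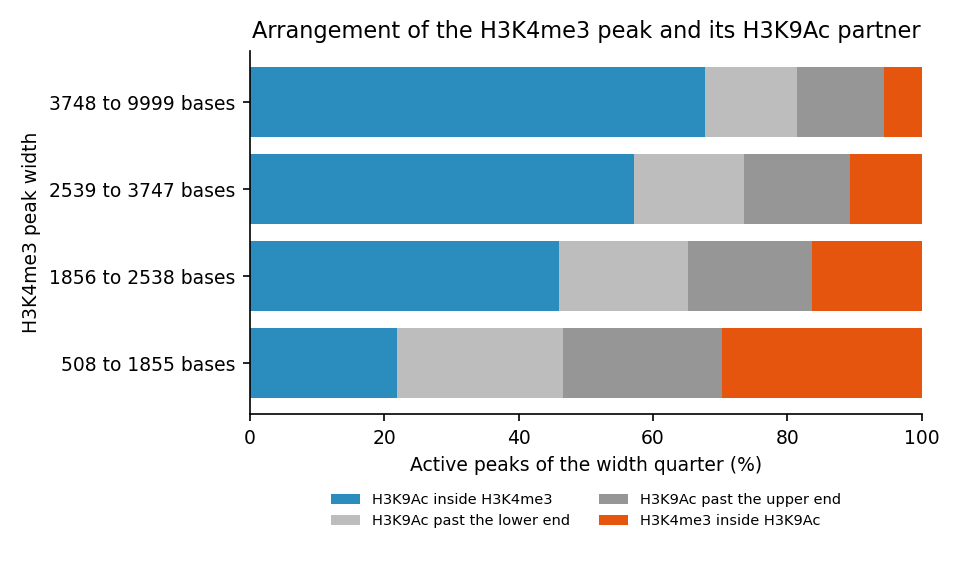
Share of active peaks (horizontal axis, %) in each arrangement of the H3K4me3 peak and its H3K9Ac partner, in 4 equal classes of H3K4me3 width (vertical axis). H3K9Ac inside H3K4me3 runs from 21.9% in the narrowest class to 67.7% in the widest, and H3K4me3 inside H3K9Ac from 29.8% to 5.56%.

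Where the partner lay inside as the only H3K9Ac peak, in 18258 active peaks with at least 1 uncovered base, the uncovered bases summed to a median of 725. The larger of the uncovered ends had a median of 504 bases and the smaller one of 174. The larger end held a median of 73.2% of the uncovered bases, a share that cannot be under 50%, and in 3122 of these peaks (17.1%) it held at least 90%. These shares were not set against a reference, so they do not show that the division was uneven. Strand was not known here, so the longer unacetylated end could not be set against the direction of a gene.

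The midpoints of the 2 marks were close together, which the rule in part ensures. It required overlap, and the partner was the H3K9Ac peak with most shared bases. The median size of the offset was 190.5 bases, and 12306 active peaks (29.7%) had midpoints at most 100 bases apart. An offset over 1000 bases was found in 3304 (7.98%). The H3K9Ac midpoint was above that of H3K4me3 in 20341 active peaks (49.1%, interval 48.6% to 49.6%) and below it in 21040 (50.8%), with a median signed offset of -5.5 bases. On every one of the 8 chromosomes the share above was under 50%, from 48.6% to 49.8%, a lean of a few bases that is small beside the spread of offsets. The size of the offset was larger for wide peaks, with a median of 375.5 bases in peaks of 3748 bases or more against 149.5 bases in those of 1855 or fewer. As a share of the width it was 7.51% and 10.1%.

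The lowest and the highest signed offset came from the same acetylated domain. An H3K9Ac peak on chromosome 2 from 517721404 to 517743535, 22132 bases wide with a score of 3100, was the widest partner and held 4 active peaks. Their widths were 2739, 9219, 1534 and 3833 bases and their H3K4me3 scores 286, 2764, 136 and 759. The outer peaks of this row had the extreme offsets of the whole set, 8767.5 and -9009.5 bases, and the peak of 1534 bases had the highest ratio of widths, 14.4. The nearest H3K9me3 peak to these 3 was at least 129335 bases away. At the other extreme, an active peak of 3823 bases on chromosome 7 from 260525082 to 260528904 (score 793) had a partner of only 479 bases (score 97.0), the lowest ratio at 0.125.

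Domains of this kind, in which 1 stretch of H3K9Ac spanned several H3K4me3 peaks, were uncommon. They made up 1313 of the 40359 partners (3.25%), with a median H3K9Ac width of 4108 bases, and the H3K4me3 peaks within them were a median of 139 bases apart. At most 4 H3K4me3 peaks shared a partner, which happened in 6 cases. The reverse, several H3K9Ac peaks on 1 H3K4me3 peak, was found in 2287 active peaks (5.52%). These were wide, with a median of 5361 bases, and made up 17.7% of the widest class but 0.512% of the narrowest. The H3K9Ac peaks on them were a median of 246 bases apart and unequal, with a median score of 558 for the strongest and 118 for the weakest. An active peak on chromosome 2 from 190844463 to 190854001 (9539 bases, score 3100) carried 4 H3K9Ac peaks of 1795, 1399, 3283 and 2793 bases, with scores of 797, 276, 1280 and 2762, and 92.7% of it was covered.

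The CpG island that the study lists for Igf2r, the receptor that takes up insulin-like growth factor 2 and a gene imprinted in opossum, fell in an active peak of this divided kind. The H3K4me3 peak, on chromosome 2 from 442404790 to 442411762, was 6973 bases wide with a score of 3100. Its H3K9Ac came as 2 peaks, 3786 bases with a score of 1061 and 2165 bases with a score of 294, which together covered 85.3% of it. The nearest H3K9me3 peak was 134401 bases away and the nearest H3K27me3 peak 275936 bases away. The study's list prints the same position for the islands at the promoter and in intron 11 of Igf2r, so which of them this is remains uncertain. The H3K4me3 peaks at the listed islands of Meis1, a homeobox transcription factor gene, Cstb, which encodes the protease inhibitor cystatin B, and Rpl17, a ribosomal protein gene, were not active peaks under the rule. The peak at Meis1 was 25574 bases wide, over the width limit. The study had picked Meis1, Cstb and Rpl17 because H3K9me3 met both MOAs at their promoters. Their absence under a rule that bars H3K9me3 was therefore largely fixed in advance.

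The 3'-UTR regions that the study lists for its candidate genes were another source of names. Of 175 such regions on chromosomes 1 to 8, 9 shared a base with an active peak. This count was not set against regions placed elsewhere, so it shows neither an excess nor a lack at these genes. Apart from Igf2r, the study had picked the genes for both MOAs and H3K9me3 at their promoters. The 5 with the strongest H3K9Ac lay at the ends of BAMBI, a decoy receptor in TGF-beta signalling, IFIH1, the sensor of double-stranded viral RNA also called MDA5, PCDHGC5, a clustered protocadherin, a gene without a symbol in the list, and FOSL2, a subunit of the AP-1 transcription factor. At BAMBI (chromosome 8, 244167303 to 244174070) the scores were 3100 for H3K4me3 and 1514 for H3K9Ac, the H3K9Ac peak covered 62.7%, and an H3K9me3 peak with a score of 99.6 lay 344 bases away. At IFIH1 (chromosome 4, 168318193 to 168322416) the scores were 892 and 1190 and 96.6% was covered. At FOSL2 (chromosome 1, 510095890 to 510100937) they were 672 and 302 and 77.9% was covered. At the other 4 regions H3K9me3 was 6857 bases away or more.

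Strong H3K4me3 went with strong H3K9Ac. H3K4me3 had a median score of 465 and the H3K9Ac partner one of 282. These are not on a common scale, because the libraries were called separately. Across the 41411 active peaks Spearman's rho between the scores was 0.63, from 0.62 to 0.65 on single chromosomes, and 0.52 in the 35797 peaks below the ceiling in both marks. A score grows with the width of the peak, and rho between width and score was 0.85 for H3K4me3 and 0.91 for H3K9Ac. Within the 4 classes of H3K4me3 width, rho between the scores was 0.12, 0.20, 0.33 and 0.44 from the narrowest to the widest, and with peaks at the ceiling left out it was 0.13, 0.21, 0.29 and 0.24. The correlation was thus lower within each width class than over all active peaks. These are correlations across regions of the same libraries and are given as descriptions.

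**Figure D3:**
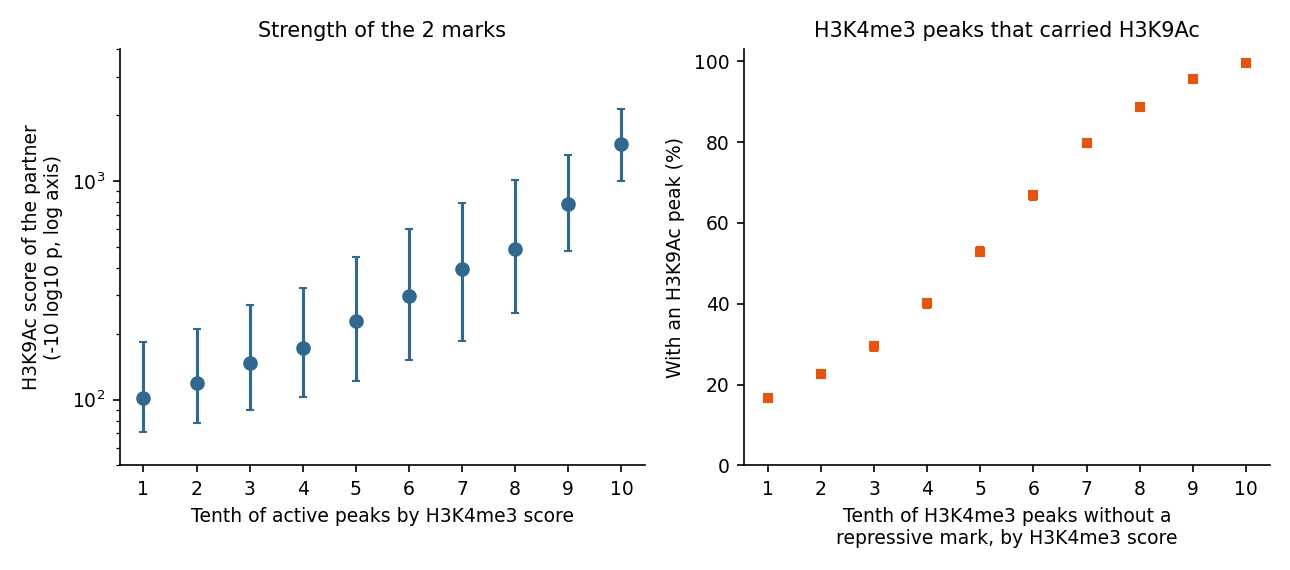
Left, H3K9Ac score of the partner (vertical log axis, median with the 25th to 75th percentile as bars) in 10 equal groups of active peaks by H3K4me3 score (horizontal axis), from a median of 102 to a median of 1477. Right, share of H3K4me3 peaks without a repressive mark that carried an H3K9Ac peak (vertical axis, %, with exact 95% intervals about the height of the markers), in 10 equal groups by H3K4me3 score, from 16.8% to 99.7%.

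When active peaks were put in 10 equal groups by H3K4me3 score, the median H3K9Ac score was 102 in the weakest group, 229 in the fifth, and 1477 in the strongest. The partner was also wider in each stronger group, from a median of 1532 bases in the weakest to 4218 bases in the strongest, while H3K4me3 width went from 1316 to 5492 bases. The median covered share went the other way for most of the range. It was 95.8% in the weakest group, 83.7% in the fifth, 80.5% in the ninth and 83.1% in the strongest. Few active peaks were at opposite ends of the 2 score ranges, each read on its own scale. In 10 active peaks H3K4me3 was at the ceiling (3000 or more) with H3K9Ac under 100, and in 23 H3K9Ac was at the ceiling with H3K4me3 under 100. Both marks were at the ceiling in 435 of the 4995 active peaks with H3K4me3 there.

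Whether an H3K4me3 peak carried H3K9Ac at all also varied with its strength, by which the rule in effect sorts. Of the 69885 H3K4me3 peaks that met the other criteria and had no repressive mark, 41411 had H3K9Ac (59.3%), and this share was 16.8% in the weakest of 10 groups by H3K4me3 score (50 to 67.6) and 99.7% in the strongest (2123 and over). The 28474 peaks without H3K9Ac had a median width of 1429 bases and a median score of 107. Their nearest H3K9Ac peak was a median of 12417 bases away, and 2105 (7.39%) had one within 1000 bases.

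The highest H3K9Ac partner score on each autosome was 3210 to 3233. Scores at the ceiling, including the repeated value of 3100, cannot be ranked among themselves. A partner at 3100 need not be weaker, so these 8 regions are not shown to hold the strongest H3K9Ac. The H3K4me3 scores beside them were at the ceiling in some regions and below it in others. They were 3100 on chromosomes 1, 2, 3, 5 and 8, but 1805 on chromosome 4 (145425339 to 145430062), 2678 on chromosome 7 (76980145 to 76986609) and 817 on chromosome 6 (224855387 to 224859424). On chromosomes 4 and 6 the H3K4me3 peak, 4724 and 4038 bases wide, lay wholly inside the H3K9Ac peak. The chromosome 6 region was also the farthest of the 8 from H3K9me3, at 180160 bases.

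Repressive peaks lay at very different distances. The nearest H3K9me3 peak was a median of 19384 bases from an active peak (interval 19084 to 19687) and the nearest H3K27me3 peak a median of 116548 bases (114775 to 118380). On chromosomes 1 to 8 there were 152259 H3K9me3 and 13322 H3K27me3 peaks, and the part of these numbers in the distances was not tested. With repressive peaks limited to a score of at least 50, the median distance to H3K27me3 was 301434 bases. H3K9me3 lay within 1000 bases of 1333 active peaks (3.22%), within 10000 bases of 12819 (31.0%) and within 100000 bases of 38986 (94.1%). For H3K27me3 these shares were 0.681%, 6.91% and 45.2%. In 4723 active peaks (11.4%) H3K27me3 was the nearer mark, and 1815 (4.38%) had both within 10000 bases. Many of the nearest peaks were weak, with a score under 50 in 36.0% for H3K9me3 and 70.3% for H3K27me3, against 46.2% and 66.3% in the lists on these chromosomes.

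**Figure D4:**
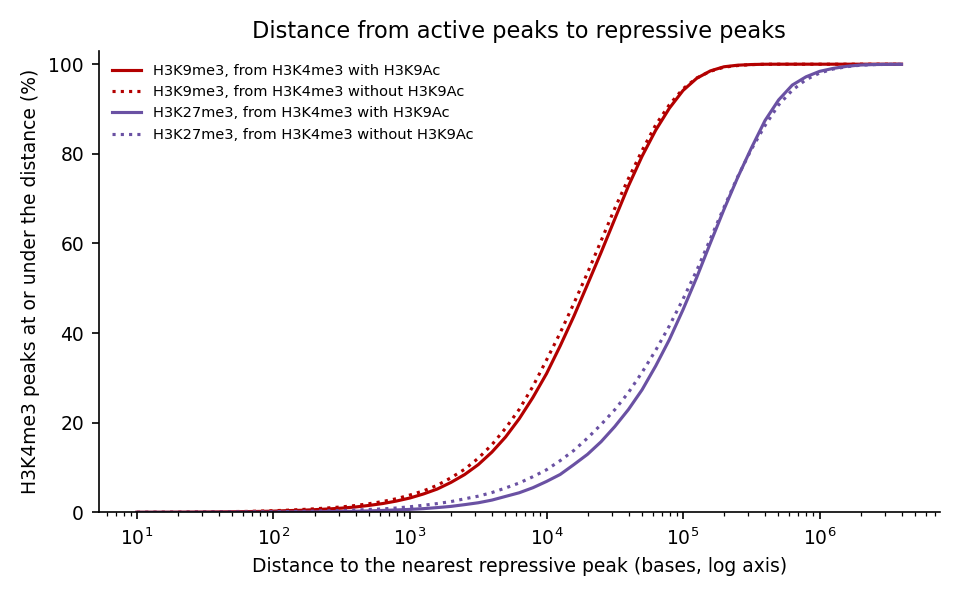
Share of H3K4me3 peaks (vertical axis, %) at or under a given distance (horizontal log axis, bases) from the nearest H3K9me3 or H3K27me3 peak, for the 41411 active peaks (solid) and the 28474 peaks without H3K9Ac (dotted). The H3K27me3 curves lie to the right of the H3K9me3 curves, with medians of 116548 and 19384 bases for active peaks, and at 1000 bases each dotted curve is above its solid one, at 3.89% against 3.22% for H3K9me3 and 1.27% against 0.681% for H3K27me3.

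Set beside the 28474 H3K4me3 peaks without H3K9Ac, active peaks were a little farther from H3K9me3, with medians of 19384 and 17849.5 bases, and fewer were close to H3K27me3. Within 1000 bases of H3K27me3 there were 0.681% of active peaks (interval 0.604% to 0.765%) and 1.27% of peaks without H3K9Ac (1.14% to 1.40%). Within 500000 bases the shares were 92.0% and 90.9%. No test was made, as both sets come from the same libraries and differ in width and score.

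The extremes show the range. On chromosome 5 from 9667203 to 9669475 an active peak (score 285, partner score 129) lay 1 base from an H3K9me3 peak with a score of 119, and on chromosome 3 from 434304492 to 434306979 another (score 1261, partner score 128) lay 1 base from an H3K27me3 peak with a score of 37.7. The active peak farthest from H3K9me3, on chromosome 4 from 161067403 to 161069327, was 502866 bases from it and was matched almost base for base by its H3K9Ac peak, with widths of 1925 and 1947 bases and midpoints 3 bases apart. The farthest from H3K27me3, on chromosome 1 from 239505619 to 239512594, was 4456842 bases from it.

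Active peaks close to called H3K27me3 peaks had higher H3K4me3 scores, and a smaller share of their width was acetylated. The study describes H3K27me3 as diffuse, with most of its significant peaks between genes, and left the mark out of its further work. The called H3K27me3 peaks therefore need not be discrete sites. The 282 active peaks within 1000 bases of an H3K27me3 peak, each beside a different one, had a median H3K4me3 score of 1457 (interval 1282 to 1811) and a median covered share of 72.8% (70.8% to 74.9%). The 22673 at 100000 bases or more had medians of 427 (418 to 436) and 85.3% (85.0% to 85.6%). Between them the values formed a gradient, with H3K4me3 scores of 914, 616, 497 and 473 and covered shares of 78.8%, 82.0%, 83.7% and 85.2% as the distance grew. The H3K9Ac scores showed no such gradient over all widths and had medians of 266 in the nearest and 273 in the farthest group. The order of nearest and farthest held on all 8 chromosomes for both measures. The H3K4me3 medians of single chromosomes were 869 to 2162 near and 402 to 445 far, with 15 to 72 active peaks near on each, and the covered shares were 69.1% to 78.3% near and 84.2% to 85.9% far.

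**Figure D5:**
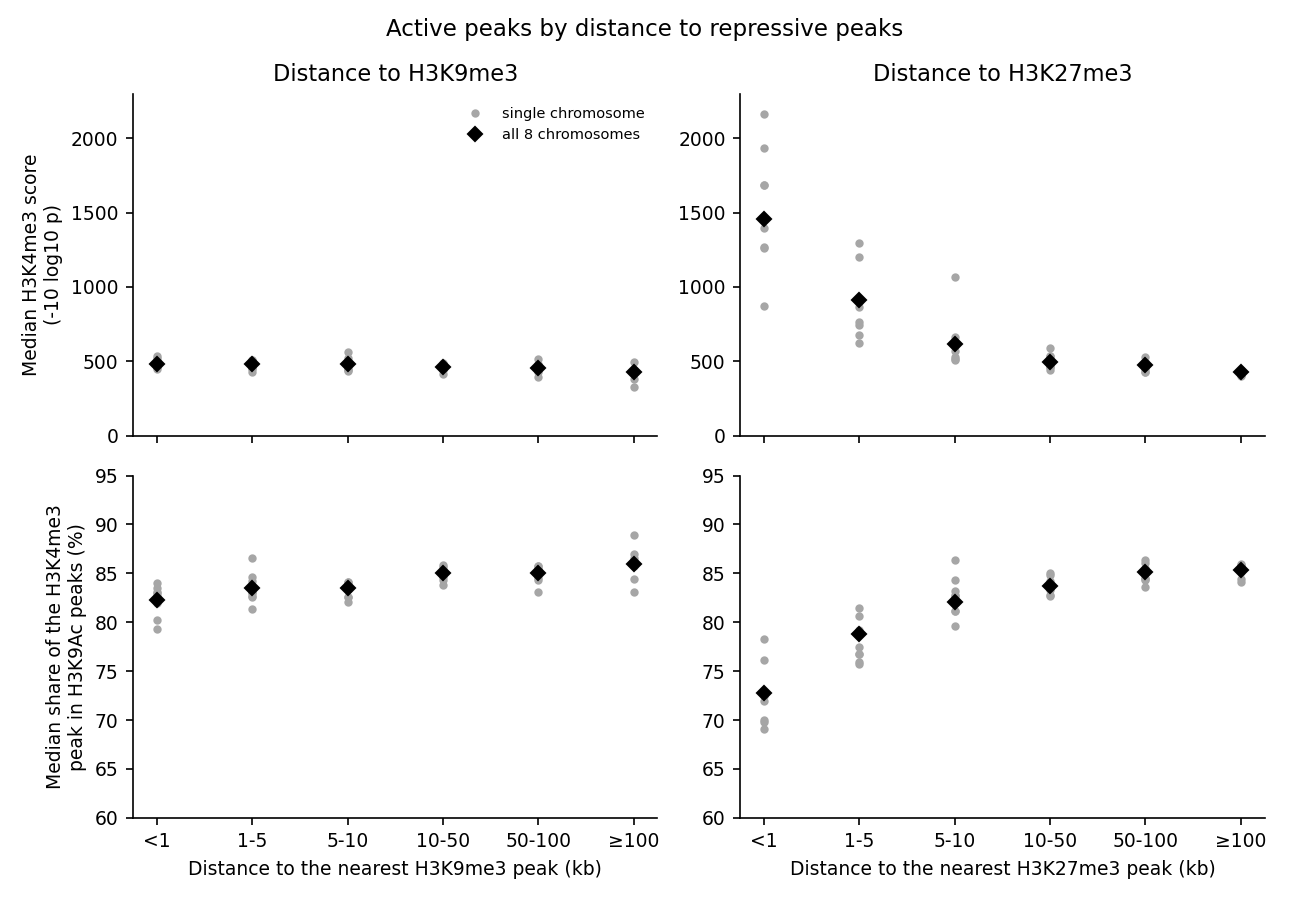
Median H3K4me3 score (upper panels) and median share of the H3K4me3 peak inside H3K9Ac peaks (lower panels, axis from 60%) in active peaks grouped by distance in kb to the nearest H3K9me3 peak (left) or H3K27me3 peak (right), for all 8 chromosomes together (diamonds) and singly (dots). With distance to H3K27me3 the score goes from 1457 to 427 and the covered share from 72.8% to 85.3%, while with distance to H3K9me3 they go from 483 to 429 and from 82.2% to 86.0%.

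Active peaks near H3K27me3 were also wider, with a median of 2932.5 bases within 1000 bases of the mark and 2497 bases at 100000 or more. Within each of the 4 width classes, active peaks under 5000 bases from H3K27me3 still had the higher median H3K4me3 score, from 179 in the narrowest class to 3100 in the widest, against 127 and 2013 for those at 100000 bases or more. The covered shares were 87.8%, 74.8%, 74.9% and 76.9% near and 92.0%, 84.9%, 82.5% and 81.6% far. The H3K9Ac scores were higher near in the narrowest class, at 123 against 113, and lower near in the other classes, at 156, 330 and 959 against 187, 408 and 1055. H3K4me3 peaks without H3K9Ac showed a difference of score in the same direction, with a median of 174 within 1000 bases and 105 at 100000 or more. With H3K27me3 peaks limited to a score of at least 50, an alternative added after the data were seen, the 567 active peaks under 5000 bases had a median H3K4me3 score of 1313 and a covered share of 75.2%, against 1054 and 77.3% for the 1477 with every deposited peak.

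Distance to H3K9me3 went with smaller differences. The median H3K4me3 score was 483 within 1000 bases (interval 444 to 518) and 429 at 100000 bases or more (403 to 452), and the covered shares were 82.2% (80.5% to 83.4%) and 86.0% (85.1% to 87.0%). On single chromosomes the score was higher near than far on 7 of 8 and the covered share lower near on 7 of 8. Within the 4 width classes, the median scores under 5000 bases from H3K9me3 were 137, 308, 642 and 2177, against 127, 302, 651 and 1930 at 100000 bases or more, so that the order turned in the third class and the difference was small in the second. The covered share was lower near H3K9me3 in all 4 classes, at 90.8%, 83.0%, 80.3% and 80.2% against 91.5%, 86.6%, 82.2% and 82.4%. Near an H3K9me3 peak the H3K9Ac midpoint leaned slightly away from it. It lay on the far side of the H3K4me3 midpoint in 723 of 1333 active peaks within 1000 bases (54.2%, interval 51.5% to 56.9%), and in 50.2% to 58.5% on single chromosomes. Over all 1333 the median signed shift away from H3K9me3 was 23.5 bases. The share was 51.6% within 5000 bases and 50.5% within 10000 bases. For H3K27me3 it was 54.6% within 1000 bases (48.6% to 60.5%) and 48.1% within 5000 bases. Within 10000 bases of H3K27me3 it was 47.7% (45.9% to 49.6%), so the direction was not steady.

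The H3K9Ac partners were not held to the rule on repressive marks, and a few crossed it. The partner of 153 active peaks (0.369%) shared a base with an H3K9me3 peak and that of 4 with an H3K27me3 peak. Partners that reached H3K9me3 were long, with a median of 4141 bases, 1.84 times the width of their H3K4me3 peak. In these places the acetylated stretch, and not the active peak, met the repressive mark. Whether another H3K4me3 peak under the same partner met it was not checked.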

How the data were processed

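Peak lists of native ChIP-seq for H3K4me3, H3K9Ac, H3K9me3 and H3K27me3, with 1 library each, were used as the authors deposited them. After quality filtering, the authors aligned reads to MonDom5 (Bowtie) and called peaks per library against the input (MACS). The submitters' processing notes name CASAVA 1.7, Bowtie 1.1.2 and MACS 1.0.1. The deposited score is the negative log10 of the p-value from MACS, multiplied by 10. The other columns deposited are the start and end of each peak. Wide peaks and deep libraries give high scores, so a score of one mark was not read as higher or lower than that of another. Both MOA lists were set against the same limits (3000 for the ceiling, 100 for a weak peak), each on its own scale.

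Overlaps and distances were computed in Python 3.11.15 (pandas 2.3.3, numpy 2.4.6, scipy 1.17.1) and plotted with matplotlib 3.10.9. Starts were converted to count from 1, and 2 H3K9me3 starts below 0 were set to 0. The choice of peaks was checked against bedtools 2.31.1, which gave the same 41411 peaks, and the code was tested on simulated data. Distances are the number of bases between peaks. Intervals of medians are binomial order-statistic intervals at 95%. The members, classes and measures were chosen with earlier results of these data known. Regions named are the H3K9Ac partner with the highest score per chromosome, the extremes of each measure and the region nearest the medians. Regions at islands or 3'-UTR regions of the study's supplement are also named. The text of that supplement was read from page images and kept where a 3'-UTR region was 1000 bases long. As a MonDom5 genome and annotation were not used here, gene starts, cell type markers and sequences were not analysed here. Alternatives covered the threshold of either pair of marks, merging of peaks, the extent of overlap, the width limit and the choice of partner.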

Additional observations from a re-analysis of the deposited data

How the results depend on the processing

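Of 36 alternative values for 7 results, 22 stayed inside the interval of the reported value (a factor of 1.5 for the number of peaks, the range over chromosomes for rho, the binomial interval for medians) and 14 did not. These intervals are wide for the number of peaks and narrow for the medians, so the tally does not measure stability. With MOR peaks of a score of at least 50 only, which leaves fewer peaks to be near, the median distance was 28548.5 bases to H3K9me3 and 301434 bases to H3K27me3. With MOA peaks of a score of at least 100 only, the covered share was 86.0%, the width ratio 0.884, rho of the scores 0.59 and the distance to H3K27me3 114098 bases. With peaks merged across gaps of up to 1000 bases the covered share was 83.5%, the width ratio 0.866 and the size of the offset 195.5 bases. With at least 50% of the H3K4me3 peak acetylated the width ratio was 0.887, the offset 179 bases and rho 0.67. Without the width limit the width ratio was 0.871 and the offset 194 bases. The number of active peaks lay between 31927 and 42067 under its alternatives. No paired analysis was possible because no antibody had a replicate. The depth of the libraries and the lack of replicates limit what the scores can rank.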

Other observations

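Active peaks were unevenly spread along the autosomes. In 3419 windows of 1 Mb their median number was 10, with 25th and 75th percentiles of 3 and 19. No active peak lay in 490 windows (14.3%), and the densest 10% of windows held 27.3% of active peaks. The 3 fullest windows were all on chromosome 1, from 455000001 to 456000000 with 65 active peaks, from 372000001 to 373000000 with 60 and from 273000001 to 274000000 with 57. Neighbouring active peaks were a median of 22663 bases apart, and 3391 of 41403 gaps (8.19%) were under 1000 bases. An H3K4me3 peak without H3K9Ac and without a repressive mark lay within 5000 bases of 8234 active peaks (19.9%).

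Seen from the H3K9me3 side, 17007 of the 152251 intervals between neighbouring H3K9me3 peaks (11.2%) held at least 1 active peak, and their median length was 61.0 kb against 4.55 kb for the intervals without. Longer intervals have more room, and this was not tested further. The interval with most active peaks, 37, was 571 kb long on chromosome 2 from 105244135 to 105815459. The fullest interval of chromosome 1, 396 kb from 354057225 to 354452964, held 30 active peaks, and that of chromosome 4, 336 kb from 262040680 to 262376815, held 29. The fullest interval of each other chromosome held 19 to 27, and intervals were not ranked beyond the fullest of each chromosome. The 386 intervals with 10 or more active peaks held 5165 of them (12.5%). These regions were picked after their values were seen.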
